A study of Gallus gallus with 6 samples.

Results

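The genes described here encode the dystrophin-glycoprotein complex of the muscle cell membrane, in chicken muscle cells in culture. They were taken by gene name, as the rows with an Ensembl identifier named DMD, UTRN, DAG1, SGCB, SGCD, SGCE, DTNA, CAV3 or SSPN. All 9 names matched 1 row each in all 6 tables, 9 of 24881 rows. The samples were primary muscle cells of the chicken embryo at passage 1. Myotubes, the fused and multinucleated state, were sampled after differentiation in RPMI-1640 with 2% horse serum. Myoblasts, the dividing precursors with a single nucleus, were sampled in RPMI-1640 with 15% fetal bovine serum, and both media held 2% penicillin and streptomycin. Each group had 3 RNA sequencing libraries, with 21893152 to 23519295 counted reads in myotubes and 16052542 to 20981337 in myoblasts. The labels give no time in the low-serum medium. Nor do they tell if replicate libraries stem from different dishes or embryos, and the p-values thus rest on a spread between libraries that may be technical.

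Dystrophin is a long rod-shaped protein that ties the actin cytoskeleton under the membrane to dystroglycan, which crosses the membrane and binds laminin outside the cell. The sarcoglycans and sarcospan form a subcomplex in the membrane beside dystroglycan and hold it in place, while dystrobrevins and syntrophins bind dystrophin inside the cell. Utrophin, a paralog of dystrophin, can take its place and is known in mammals from immature fibres and from the neuromuscular junction. Loss of dystrophin, or of some but not all of the single sarcoglycans, causes muscular dystrophy in humans.

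The labels were set beside marker genes. The marker lists were chosen with earlier results of these data known, so they are not an independent check. Of 10 tested genes of myotube differentiation, 10 were called higher in myotubes, and of 11 tested genes of proliferation, 11 were called lower. Over all tested genes 36.7% were called higher and 35.7% lower. TTN, NEB and RYR1 of the differentiation list and CCNB3 of the proliferation list matched no row. The summed level of the differentiation list was 1708 to 1758 FPKM in myotubes and 758 to 816 FPKM in myoblasts. By mean over all 6 libraries TNNI2 and MYL1 were its highest genes, and the highest genes of the other marker lists are named by the same mean. FPKM is the read count scaled for the length of the gene model and for library size. The summed level of the proliferation list was 217 to 260 FPKM in myotubes and 1475 to 1546 FPKM in myoblasts, with PCNA and UBE2C the highest by that mean.

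The complex did not move as a unit between myotubes and myoblasts. Of the 9 genes, 4 were called higher in myotubes (DMD, UTRN, SGCD and SSPN), 3 were called lower (SGCB, SGCE and CAV3) and 2 were not called (DAG1 and DTNA). Calls are from edgeR's quasi-likelihood test, with a threshold of 0.05 on p-values adjusted over the 12808 genes whose mean reached 1 FPKM, a filter that all 9 passed. Over all tested genes 72.5% were called, 36.7% higher and 35.7% lower (4706 and 4577 genes, against 5839 and 3474 in limma on the TPM scale, where the FPKM of every library has the same sum), so a count of 7 called of 9 is close to the background. Changes of at least 2-fold were called for 2 of the 9, UTRN and SSPN, and for 25.1% of tested genes. The median log2 fold change of the 9 genes was -0.013, against 0.01 over all tested genes, and the median size without sign was 0.53 against 0.54. Fold changes are myotube over myoblast, with their standard error (SE) or 95% interval. An edgeR fit with an offset that follows gene length, added after the data were seen, called 2 of the 9 higher and 5 lower. Over all 12808 tested genes that fit called 4442 higher and 4802 lower, so its count for the 9 is also close to the background. Its offset was drawn from each library's deviation from the mean over all 6 libraries. It thus also takes out the group difference that genes of like length share. In that fit, and so relative to genes of like length, DMD was called lower and UTRN was not called.

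**Figure D1:**
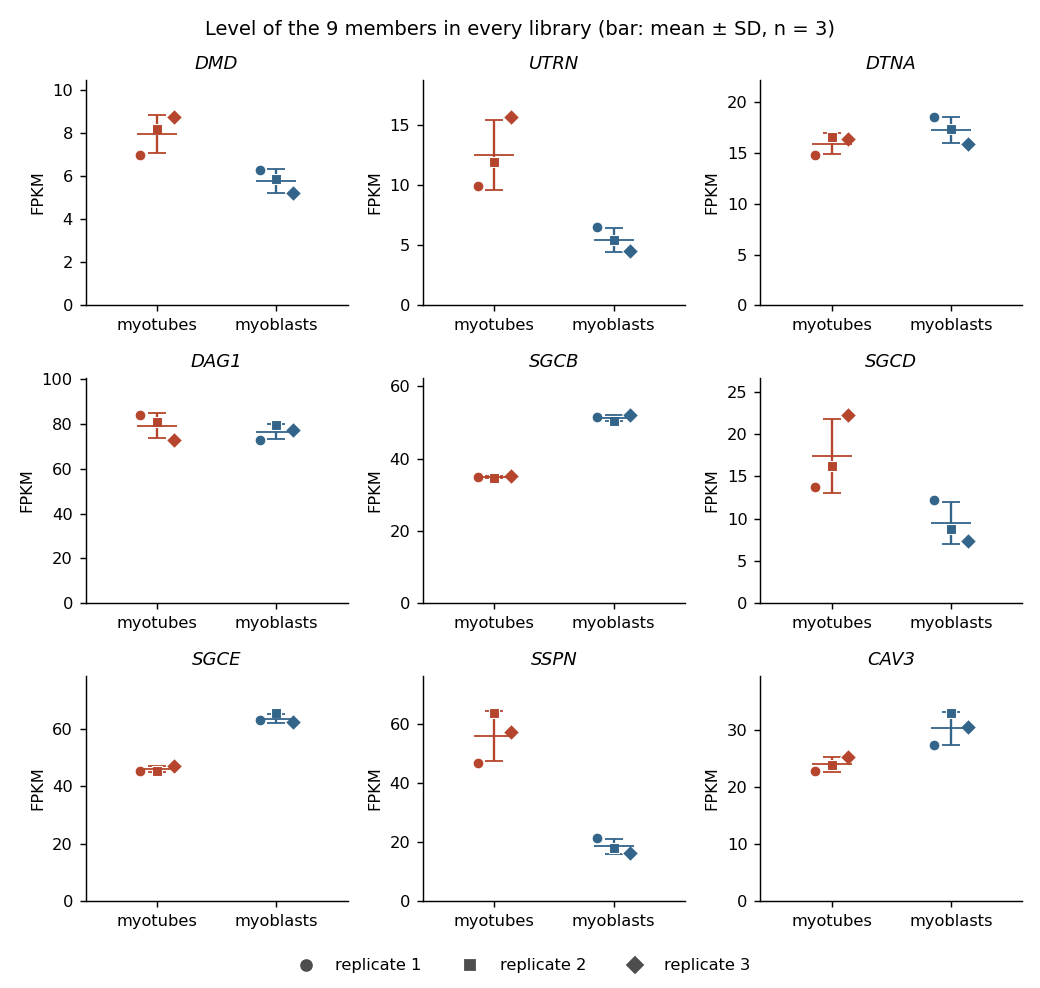
FPKM of each of the 9 genes in every library, myotubes on the left and myoblasts on the right of each panel, with symbols for the replicate number and a bar for the mean ± SD (n = 3). SSPN and UTRN show the largest fold change between the groups, SGCB and SGCE are lower in myotubes with almost no spread, and the groups overlap for DAG1 and DTNA.

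DMD, which encodes dystrophin, spans 996095 bases on the plus strand of chromosome 1, from 114486908 to 115483002, in the coordinates of the tables, for which no genome build is stated in the labels or headers. Its level was 7.004, 8.18 and 8.74 FPKM in the 3 myotube libraries and 6.31, 5.89 and 5.21 FPKM in the 3 myoblast libraries. Every myotube library thus lay above every myoblast library, though the lowest myotube value and the highest myoblast value were close together. The difference was 1.32-fold, 0.40 ± 0.09 on the log2 scale (SE), with an edgeR adjusted p = 0.0025. DMD was the lowest of the 9 genes in myotubes per length and shared the lowest place with UTRN in myoblasts. Its mean level exceeded that of 33.8% of tested genes in myotubes and of 30.4% in myoblasts. One other listed gene lies inside DMD on the same strand, with 2 counts over the myotube libraries and 3 over the myoblast libraries, against 6574 and 3737 for DMD itself.

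UTRN, which encodes utrophin, lies on the plus strand of chromosome 3, from 46068391 to 46415545. It had 9.94, 11.9 and 15.6 FPKM in myotube libraries and 6.48, 5.41 and 4.50 FPKM in myoblast libraries. The groups did not overlap, and the rise was 2.19-fold, 1.13 ± 0.16 on the log2 scale (SE; edgeR adjusted p = 0.0001). This was the second largest change among the 9 genes, larger without sign than that of 78.5% of tested genes. Its libraries also spread widely. The coefficient of variation was 23.1% in myotubes and 18.1% in myoblasts, where the median over tested genes was 7.90% in myotubes and 7.53% in myoblasts.

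The balance of the 2 paralogs differed between the groups in every library. The ratio of DMD to UTRN, per length, was 0.704, 0.687 and 0.560 in myotube libraries and 0.975, 1.09 and 1.16 in myoblast libraries. Myoblasts thus held about equal levels per length, and every myotube library held less DMD than UTRN. Both statements compare FPKM between genes and so depend on the lengths of the gene models. The ratio averaged 0.650 ± 0.079 in myotubes and 1.07 ± 0.09 in myoblasts (SD, n = 3 each), a 1.66-fold lower ratio in myotubes. In the exact permutation test over libraries, two-sided, p was 0.1, the smallest that 3 against 3 allows. Leaving out each library in turn gave log2 differences of -0.80 to -0.62, against -0.73 with all libraries.

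Gene length moved with the changes of DMD and UTRN. Their models, of 12099 and 10602 bases as the FPKM values imply, are the longest of the 9. Of 120 tested genes with models of at least 8 kb, 102 were called higher in myotubes and 7 lower, with a median log2 fold change of 1.00. Among these 120 genes, 23 changed by less than DMD or fell, and 68 lay below UTRN. In models of 500 to 1000 bases, 26.9% of 1874 tested genes were called higher and 45.3% lower, with a median of -0.21. With the length-dependent offset the log2 fold change of DMD was -0.66 (edgeR adjusted p = 2.2e-06) and that of UTRN 0.17 (adjusted p = 0.19). These values place both genes against genes of like length, because the offset takes out the group difference that such genes share. They do not show a fall of DMD itself. The part of length in the changes of both genes was not tested.

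**Figure D2:**
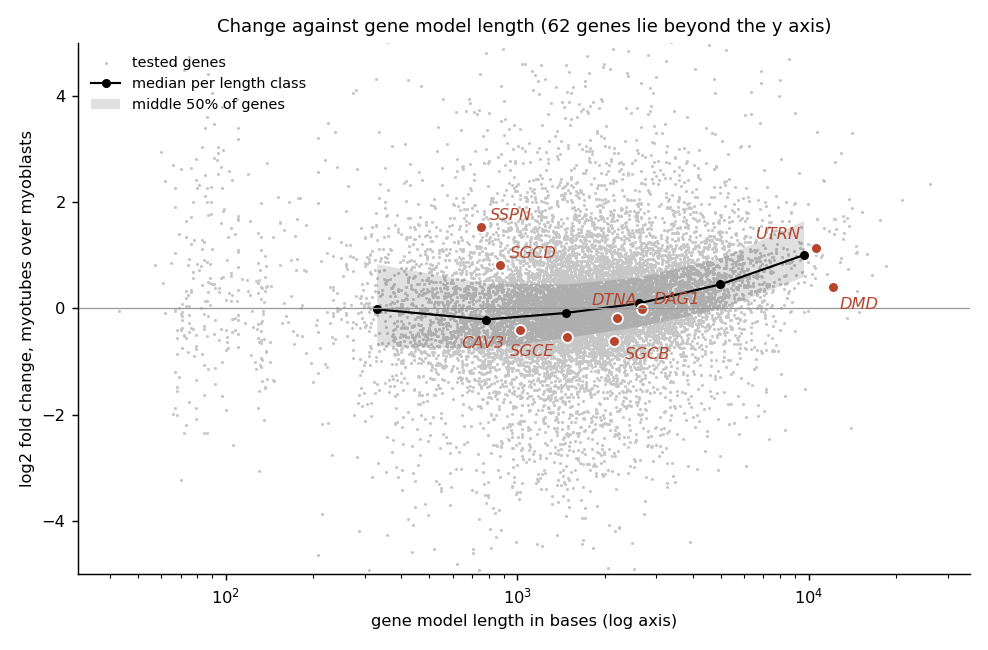
Log2 fold change of myotubes over myoblasts (y axis) against gene model length in bases (x axis, log scale) for all 12808 tested genes in grey, with the median and the middle 50% of genes in 6 length classes and the 9 genes in red. The medians reach 1.00 in the class of at least 8 kb, where UTRN lies near the median and DMD below it, while SSPN and SGCD lie above the median of their length class.

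Within each group DMD, UTRN and SGCD were highest and lowest in the same libraries as the median of the long genes. SSPN and DTNA were highest in another myotube library, library 2. The median deviation of the 120 long genes from their group mean, on the log2 scale, was -0.12, -0.02 and 0.14 in myotube libraries 1, 2 and 3. It was 0.12, 0.00058 and -0.11 in myoblast libraries 1, 2 and 3. In libraries 1 and 3 of each group 5 of the 9 genes, DMD, UTRN, SGCD, DTNA and SSPN, deviated with the same sign as the long genes. The share of all tested genes with these signs was not counted, and DMD and UTRN are themselves among the 120. In myotube library 2 DMD, DTNA and SSPN went the other way, at 0.03, 0.05 and 0.19, and UTRN and SGCD did not, at -0.05 and -0.08. UTRN deviated by -0.28 and 0.34 in myotube libraries 1 and 3 and by 0.25 and -0.25 in myoblast libraries 1 and 3. SGCD, whose model is short, deviated by -0.29 and 0.37 in the same myotube libraries and by 0.38 and -0.31 in the same myoblast libraries. SSPN deviated by -0.23 and 0.04 in these myotube libraries and by 0.20 and -0.15 in these myoblast libraries. The part of this spread between libraries in the group differences was not tested.

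SSPN encodes sarcospan, a small protein that crosses the membrane several times and binds the sarcoglycans. It changed most of the 9 genes. Its level was 46.8, 63.7 and 57.2 FPKM in myotube libraries and 21.5, 18.0 and 16.5 FPKM in myoblast libraries. The lowest myotube library held more than 2 times the highest myoblast library. The rise was 2.87-fold (95% interval 2.36 to 3.50), with an edgeR adjusted p = 2.2e-06, and was 1.69 on the log2 scale with the length-dependent offset, against 1.52 without it. By mean level among the 9 genes SSPN ranked next after DAG1 in myotubes, and after DAG1, SGCE, SGCB and CAV3 in myoblasts. In myotubes the library range of SSPN lay apart from that of DAG1 and overlapped that of SGCE. The gene lies on the plus strand of chromosome 1, from 67665579 to 67683309.

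The sarcoglycans split. SGCD, delta-sarcoglycan, had 13.8, 16.2 and 22.2 FPKM in myotube libraries and 12.2, 8.82 and 7.40 FPKM in myoblast libraries. The groups did not overlap, but the first library of each group lay close to the other group. The rise was 1.77-fold with a wide 95% interval, 1.28 to 2.43 (edgeR adjusted p = 0.0048), and SGCD had the highest coefficients of variation of the 9 genes, 24.9% in myotubes and 26.2% in myoblasts. Its depth was also the lowest, 1035 counts over the myotube and 437 over the myoblast libraries.

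SGCB and SGCE fell. SGCB, beta-sarcoglycan, the partner of delta-sarcoglycan in the core of the subcomplex, had 35.0, 34.7 and 35.1 FPKM in myotube libraries and 51.5, 50.4 and 51.9 FPKM in myoblast libraries. Values within a group differed by far less than the groups did, with a coefficient of variation of 0.53% in myotubes and 1.54% in myoblasts. At 1655 to 1771 counts in each myotube library, counting error alone is wider than 0.53%, so such closeness of 3 values does not measure precision. It was 1.53-fold lower in myotubes, -0.62 ± 0.05 on the log2 scale (SE; edgeR adjusted p = 2.8e-06). SGCE, epsilon-sarcoglycan, which is known in mammals to take the place of alpha-sarcoglycan outside striated muscle, had 45.5, 45.3 and 47.2 FPKM in myotube libraries and 63.0, 65.4 and 62.3 FPKM in myoblast libraries. Again no myotube value reached a myoblast value, and SGCE was 1.44-fold lower (edgeR adjusted p = 1.4e-05). SGCD lies on chromosome 13 from 11524677 to 11645193 and SGCE on chromosome 2 from 23679323 to 23705714, both on the minus strand, and SGCB on the plus strand of chromosome 4 from 66587695 to 66593630.

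The makeup of the sarcoglycan transcripts differed between the groups. Beside the 3 sarcoglycans above, SGCA and SGCZ, the genes of alpha- and zeta-sarcoglycan, were read from the tables. SGCA, named here after its values were seen, averaged 11.7 ± 1.9 FPKM in myotubes and 12.3 ± 0.89 FPKM in myoblasts (SD, n = 3 each) and was not called (edgeR adjusted p = 0.36). Its row lies on an unplaced sequence. SGCZ, also named after its values were seen, was under the filter, with 34 counts over the myotube and 7 over the myoblast libraries.

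Of the summed FPKM of these 5 genes, SGCD made up 12.7, 15.0 and 19.3% in myotube libraries and 8.84, 6.40 and 5.52% in myoblast libraries. SGCE and SGCB were the most abundant of the 5 in every library, with 41.6% ± 0.50 and 31.6% ± 0.96 in myotubes and 46.5% ± 0.97 and 37.5% ± 1.1 in myoblasts (SD, n = 3 each). SGCE exceeded SGCA 3.27-, 4.05- and 4.66-fold in myotube libraries and 5.50-, 4.94- and 5.11-fold in myoblast libraries, so the epsilon gene outweighed the alpha gene in both cell states. The sum of the 5 was 111 ± 3.9 FPKM in myotubes and 137 ± 2.4 FPKM in myoblasts. These shares compare FPKM between genes and so depend on the gene models. For 7 of the 9 genes the length behind FPKM is a multiple of 3, as in models of coding sequence alone, while SGCB and CAV3 are exceptions.

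**Figure D3:**
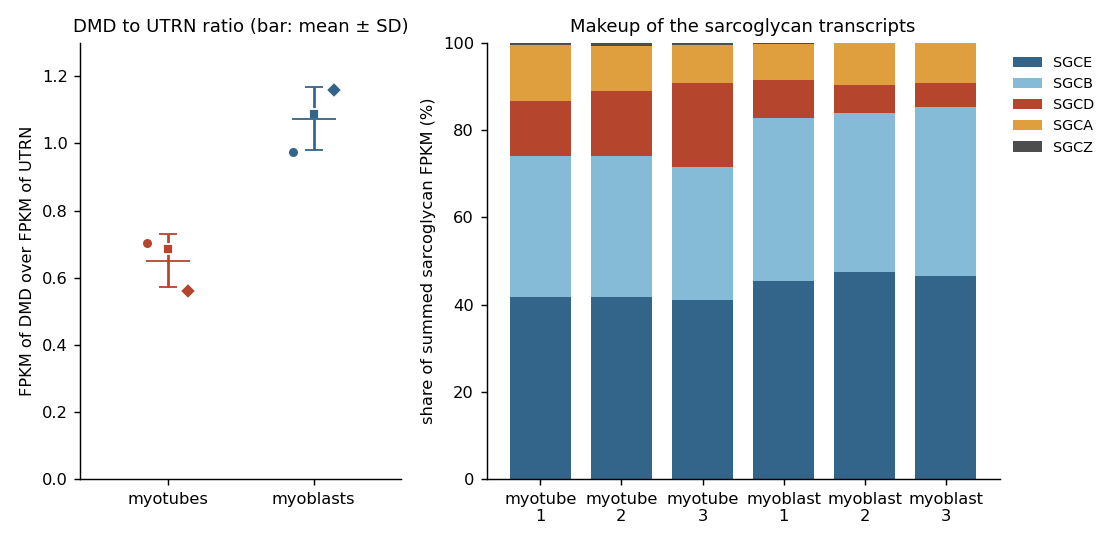
Left, the ratio of DMD to UTRN FPKM in each library, with mean ± SD (n = 3): all myotube libraries lie below 0.71 and all myoblast libraries above 0.97. Right, the share of each of 5 sarcoglycan genes in their summed FPKM, 1 column a library, in percent: the SGCD segment is taller in myotubes, and SGCE and SGCB are the tallest in every library.

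DAG1 encodes the alpha and beta subunits of dystroglycan, the laminin receptor at the centre of the complex. It was the most abundant of the 9 genes in both groups, at 83.7, 80.9 and 72.8 FPKM in myotube libraries and 72.8, 79.2 and 77.2 FPKM in myoblast libraries. The groups overlapped. The fold change was 0.99 (95% interval 0.89 to 1.10; edgeR adjusted p = 0.88). DAG1 turned with the scaling: it was called higher on the TPM scale, at 0.17 on the log2 scale (limma adjusted p = 0.036), and by quantile normalization, at 0.25 (limma adjusted p = 0.0067). On the TPM scale the median of all genes was itself 0.20, a shift of 0.19, and relative to it DAG1 stood at -0.03. By quantile normalization the median of all genes was 0.0064, and the value of DAG1 lay well above it. The gene lies on the minus strand of chromosome 12, from 2418788 to 2429944.

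DTNA encodes alpha-dystrobrevin, which binds dystrophin and carries syntrophins. It had 14.8, 16.6 and 16.4 FPKM in myotube libraries and 18.5, 17.4 and 16.0 FPKM in myoblast libraries, and the groups overlapped. It stood at -0.18 ± 0.08 on the log2 scale (SE; 95% interval -0.35 to -0.01) and just missed the threshold (edgeR adjusted p = 0.058). DTNA was called lower under several other settings, such as median-of-ratios scaling (adjusted p = 0.049) and without myoblast replicate 3 (adjusted p = 0.041). On the TPM scale its value was 0.0051, or -0.20 relative to the median of all genes. DTNA lies on the plus strand of chromosome 2, from 107653915 to 107871854.

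CAV3 encodes caveolin-3, the muscle form of the protein that shapes caveolae, which binds dystroglycan in mammals. It had 22.7, 23.9 and 25.3 FPKM in myotube libraries and 27.3, 32.9 and 30.5 FPKM in myoblast libraries. No myotube library reached the lowest myoblast library. CAV3 was 1.32-fold lower in myotubes (95% interval of the log2 fold change -0.60 to -0.20; edgeR adjusted p = 0.0024), with the same sign in every alternative. It lies on the plus strand of chromosome 12, from 19314648 to 19318095. Another caveolin gene fell further: CAV1 averaged 65.8 ± 8.0 FPKM in myotubes and 205 ± 13 FPKM in myoblasts (SD, n = 3 each), 3.25-fold lower (edgeR adjusted p = 8.4e-08).

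In order of level per length, which depends on the gene models, myotubes ran from DAG1 through SSPN, SGCE, SGCB, CAV3, SGCD, DTNA and UTRN to DMD. Among neighbours in that order the library ranges of SSPN and SGCE, of SGCD and DTNA, and of DTNA and UTRN overlapped. Myoblasts ran from DAG1 through SGCE, SGCB, CAV3, SSPN, DTNA, SGCD and DMD to UTRN, where the ranges of SSPN and DTNA and of DMD and UTRN overlapped. The groups did not overlap in 7 of the 9 genes, where this was so for 75.9% of all tested genes.

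**Figure D4:**
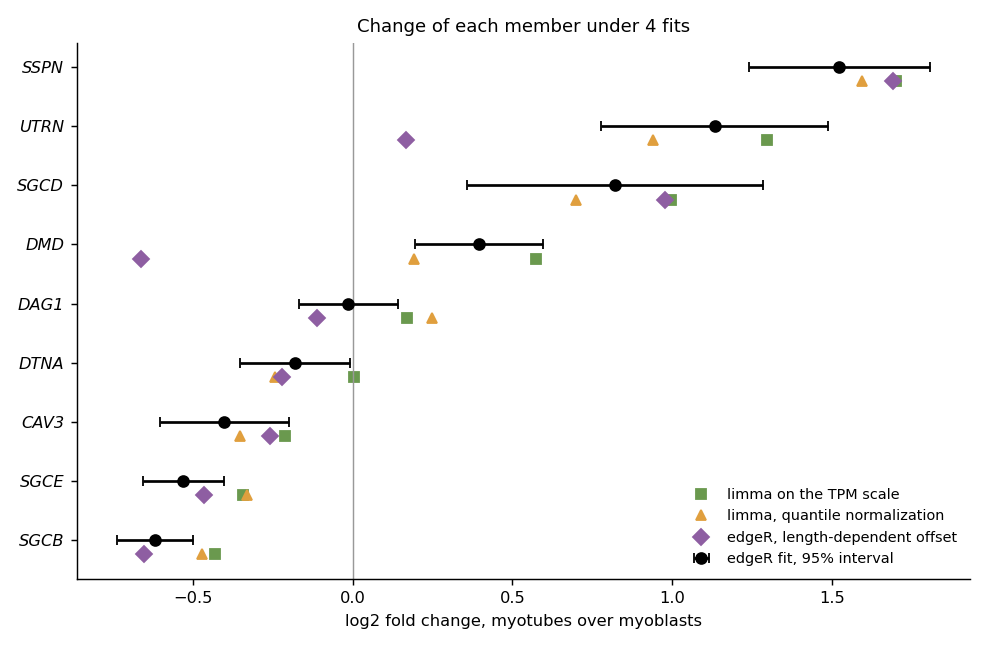
Log2 fold change of myotubes over myoblasts for the 9 genes, in black with the 95% interval of the edgeR fit, and in colour the value under limma on the TPM scale, limma with quantile normalization and edgeR with a length-dependent offset. SSPN and SGCD lie right of 0 and SGCB, SGCE and CAV3 left of it in all 4, while DMD crosses from 0.40 to -0.66 with the length-dependent offset, and DAG1 changes side with the scaling.

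The genes most like DMD over the 6 libraries were SPG11, STON2 and TAOK1. Likeness was the Euclidean distance between log2 CPM values (CPM is counts scaled by TMM-adjusted library sizes), each centred on its gene's mean, and was 0.06 for all 3. Their log2 fold changes were 0.39, 0.41 and 0.40. UTRN was most like SIPA1L2, at a distance of 0.08, then BIRC6 and DENND4A, at 0.17 and 0.18, with log2 fold changes of 1.18, 1.17 and 1.19. SIPA1L2 had 4.55, 5.71 and 7.09 FPKM in myotube libraries and 2.94, 2.43 and 2.00 FPKM in myoblast libraries, the same rank order of libraries as UTRN. Close fold changes and a like order of libraries follow from choosing genes by this distance.

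Proteins that bind or surround the complex were described from 5 gene lists. Of their 119 names 82 were found in the tables, and 71 of these were tested. The background for the counts in this and the following lists was 36.7% called higher and 35.7% lower over all tested genes. Among other dystrophin-associated proteins, 2 of 10 tested genes were called higher and 4 lower, with a median log2 fold change of -0.09. MAST2, a kinase that binds syntrophins, was 1.43-fold higher (edgeR adjusted p = 0.00027), though at 0.02 on the log2 scale with the length-dependent offset (adjusted p = 0.76). SNTB2, one of the syntrophins, adaptors that bind dystrophin, was 1.32-fold lower (edgeR adjusted p = 0.0088), but not called on the TPM scale (limma adjusted p = 0.14). NOS1, named after its values were seen, the neuronal nitric oxide synthase that syntrophin anchors in mammalian muscle, had 1 count over the myotube and 0 over the myoblast libraries. In this list 3 were called higher and 1 lower on the TPM scale, and 1 higher and 5 lower with the length-dependent offset.

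Enzymes that build the laminin-binding sugar chain of dystroglycan were mixed, with 5 of 15 tested genes higher, 8 lower and a median of -0.31. POMGNT2, which extends the O-mannose core, averaged 4.62 ± 0.18 FPKM in myotubes and 2.04 ± 0.25 FPKM in myoblasts, 2.15-fold higher (edgeR adjusted p = 7.5e-05). ISPD, which makes the CDP-ribitol donor, was 1.95-fold higher (adjusted p = 0.001). LARGE2, an enzyme that polymerises the laminin-binding repeat, was 1.69-fold lower at 5.80 ± 0.48 FPKM in myotubes and 9.36 ± 0.45 FPKM in myoblasts (adjusted p = 6e-05). DPM3, a subunit of the enzyme that supplies dolichol-linked mannose, was 1.58-fold lower (adjusted p = 8.9e-05). Quantile normalization gave 3 higher and 8 lower, and the TPM scale 5 and 5.

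Laminins and other matrix proteins were higher in 6 and lower in 2 of 10 tested cases, with a median of 0.38. Collagen VI, which is not itself a dystroglycan ligand, led the rise: COL6A3 averaged 267 ± 28 FPKM in myotubes and 65.7 ± 5.2 FPKM in myoblasts, 3.90-fold higher (edgeR adjusted p = 1.8e-08), and COL6A1 was 3.18-fold higher. AGRN, whose product agrin binds dystroglycan, was 2.99-fold lower, and NID2, which links laminin to collagen IV, 1.14-fold lower. LAMA2, the laminin chain of mature muscle basement membrane, named after its values were seen, was under the filter at 1.41 ± 0.17 FPKM in myotubes and 0.405 ± 0.051 FPKM in myoblasts. Quantile normalization gave 5 higher and 1 lower in this list, and the length-dependent offset 3 and 4. With that offset COL6A3 was 1.04 on the log2 scale, against 1.96 without it, and AGRN -2.27 against -1.58, both still called. NID2 was 0.038 by quantile normalization and -0.0029 on the TPM scale, neither of them called. In the same libraries 10 of 11 tested fibroblast markers were called higher, and the summed level of the list was 6143 to 6801 FPKM in myotubes and 2391 to 2454 FPKM in myoblasts, with COL1A2 and MMP2 the highest by mean over all 6 libraries. Their part in these rises was not tested.

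Linkers of the costamere, which attach the contractile apparatus to the membrane, were called higher in 10 and lower in 5 of 18 tested cases, with a median of 0.27. ITGA7, the laminin-binding integrin of muscle, rose 3.44-fold to 3.47 ± 0.77 FPKM in myotubes, against 0.965 ± 0.30 FPKM in myoblasts (edgeR adjusted p = 5.1e-05). DST, a very long cytoskeletal linker, was 3.17-fold higher, and 0.33 on the log2 scale with the length-dependent offset. ILK, the kinase-like scaffold at integrin tails, fell 1.97-fold, and its partner PARVB 1.40-fold, the second of these not called by quantile normalization (limma adjusted p = 0.17). Higher and lower calls were 10 and 2 on the TPM scale, 11 and 1 by quantile normalization, and 5 and 8 with the length-dependent offset.

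Genes of caveolae and membrane repair were called higher in 7 and lower in 9 of 18 tested cases, with a median of -0.29. DYSF, the membrane repair protein dysferlin, averaged 28.3 ± 1.5 FPKM in myotubes and 7.69 ± 0.53 FPKM in myoblasts, 3.52-fold higher (edgeR adjusted p = 6.7e-09). CAPN3, the muscle calpain, was 3.92-fold higher (adjusted p = 9.1e-08). ANXA1, an annexin of membrane repair, was 3.46-fold lower at 122 ± 4.1 FPKM in myotubes and 404 ± 10.3 FPKM in myoblasts (adjusted p = 3.1e-09), and CAV1 was next among the falls.

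**Figure D5:**
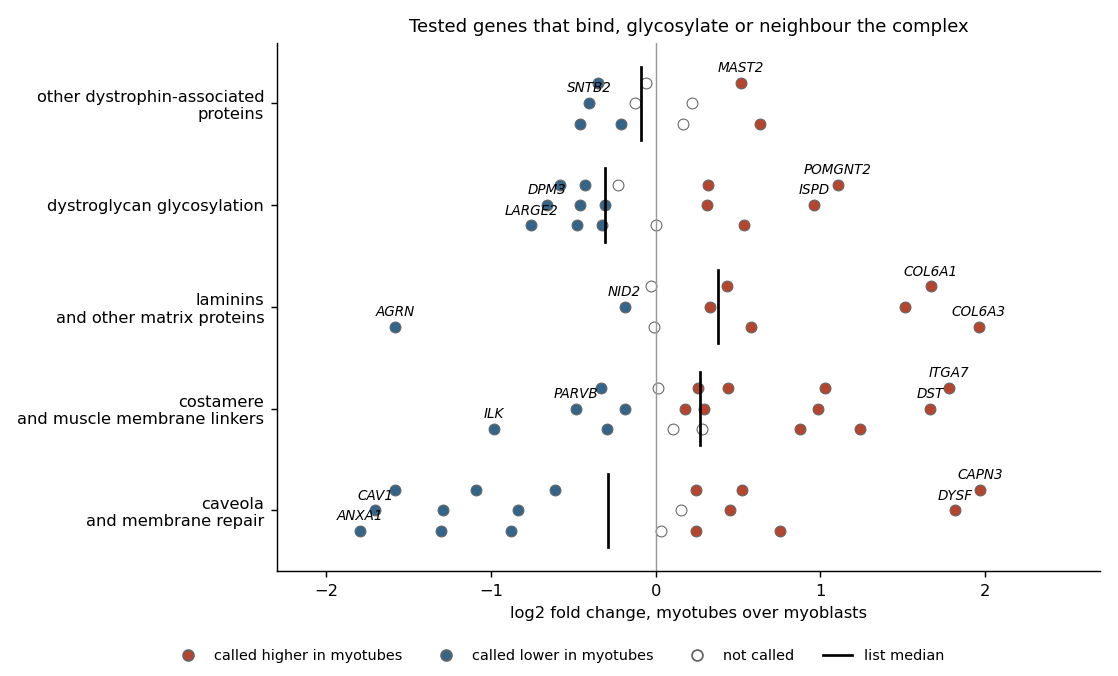
Log2 fold change of myotubes over myoblasts for each tested gene of the 5 lists around the complex, coloured by its call, with the list median as a black line and names for those of the 2 highest and 2 lowest genes that the text describes. Medians run from -0.31 for dystroglycan glycosylation to 0.38 for laminins and other matrix proteins, and every list holds genes called in both directions.

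Markers of other cell types moved between the groups as well, where 36.7% of all tested genes were called higher and 35.7% lower. Macrophage and blood markers were called lower in 7 of 8 tested cases, with a summed level of 118 to 129 FPKM in myotubes and 667 to 703 FPKM in myoblasts. C1QB and C1QC were the highest of them by mean over all 6 libraries, as are the genes named for the lists that follow. Neural crest and Schwann cell markers, MLANA and PMP22 among them, were lower in 4 and higher in 1 of 5, at 26.8 to 29.2 FPKM in myotubes and 255 to 284 FPKM in myoblasts. Smooth muscle and pericyte markers, TAGLN and ACTA2 among them, were higher in 4 and lower in 3 of 8, at 2993 to 3582 FPKM in myotubes and 1693 to 1786 FPKM in myoblasts. ACTA2 averaged 1926 FPKM in myotubes and 283 FPKM in myoblasts, while TAGLN, not called, averaged 1179 and 1283 FPKM. The higher sum thus does not describe the list as a whole. Endothelial markers, FLT1 and CDH5 among them, were low, at 1.38 to 1.86 FPKM in myotubes and 3.06 to 3.26 FPKM in myoblasts, with 1 of 6 tested and called lower. Some listed markers, such as COL1A1, TTN and PECAM1, matched no row. No marker that matched a row was at 0 in all libraries, but some were close to it. HBAA had 1 count over the myotube and 3 over the myoblast libraries, and TCF21 2 and 2. Several members, such as UTRN, DAG1, SGCB and SGCE, are also used by cells other than muscle. In RNA from whole cultures fewer cells of a type and less RNA per cell cannot be told apart, and the part of these cell types in the members' changes was not tested.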

How the data were processed

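RNA of 3 myotube and 3 myoblast samples, grouped by their developmental stage label, was sequenced with Illumina libraries. Per the file headers, the authors deposited raw read counts and FPKM for each gene and library. HISAT and HTSeq are named in the submitters' processing notes without version. No label or header states a genome build, a strand setting or how reads with several matches were counted. The deposited FPKM equals the count divided by the library total and by a gene length, which for 5 of the 9 genes is shorter than the length listed. Loci without an Ensembl identifier, 1.66 to 2.12% of counts, and 2 text rows in each myotube table were left out.

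Counts of genes whose FPKM averaged 1 or more were tested with edgeR 4.0.16 in R 4.3.3 (quasi-likelihood F-test, TMM scaling, two-sided, Benjamini-Hochberg adjustment over 12808 genes). The common biological coefficient of variation was 0.0975. DESeq2 1.42.0 and limma 3.58.1 on log2(FPKM + 0.1) served as alternatives, with other scalings, filters, a stricter threshold, a replicate block and each library left out. The fit with a length-dependent offset was added after the data were seen. The offset was a curve smoothed over gene length, of each library's deviation from the mean over all 6 libraries. Group differences shared by genes of like length are therefore part of it. The test was first run on simulated counts. The 9 genes, the lists and the alternatives were chosen with earlier results of these data known. Genes were named by rule: the 9 genes, the 2 called genes with the largest rise and the 2 with the largest fall in each list, the 3 genes nearest to DMD and to UTRN, and the 2 most abundant markers of each marker list. SGCA, SGCZ, NOS1 and LAMA2 were named after their values were seen. Some genes that the rule selects are not reported here. No test was made over a list as a whole.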

Additional observations from a re-analysis of the deposited data

How the results depend on the processing

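SSPN, UTRN, SGCD, SGCB, SGCE and CAV3 kept their sign and call in all 17 alternatives other than the length-dependent offset, and DMD in all but quantile normalization, at 0.19 on the log2 scale (limma adjusted p = 0.13). DAG1, not called, turned to 0.046 with library totals, 0.049 with limma on log2(FPKM + 0.1), 0.048 with log2(FPKM + 1), 0.17 on the TPM scale and 0.25 by quantile normalization, and ranged from -0.069 to 0.047 with 1 library left out. DTNA was called lower with median-of-ratios scaling at -0.19, quantile normalization at -0.24 and the filterByExpr filter at -0.21, ranged from -0.23 to -0.14 with 1 library left out, and was 0.0051 on the TPM scale.

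With the length-dependent offset 2 of the 9 genes were higher and 5 lower, and 4442 and 4802 over all genes. DMD was -0.66, UTRN 0.17 and DTNA -0.22. Costamere genes were 5 higher and 8 lower, matrix genes 3 and 4, and other dystrophin-associated genes 1 higher. On the TPM scale 2 costamere, 5 glycosylation, 1 matrix and 1 other dystrophin-associated gene were lower. Quantile normalization gave 1 costamere and 1 matrix gene lower and 3 glycosylation genes higher. Over all genes the TPM scale gave 5839 higher and 3474 lower, against 4706 and 4577. NID2 turned to 0.038 by quantile normalization. Of 324 values for 18 named genes of the lists, 319 kept sign and call, 4 lost the call and 1, NID2, changed sign.

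Same-numbered libraries did not deviate together (correlations -0.04, 0.10 and -0.15). With 3 libraries a group these values cannot show whether same-numbered libraries share a dish or an embryo, which the labels do not give. With the replicate block 4 of the 9 genes were higher and 3 lower, and 4447 and 4337 over all genes.

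SGCD had the largest SE of the 9, 0.21 on the log2 scale, with 437 counts in myoblasts. UTRN had the next largest, 0.16, with 3059 counts in myoblasts. The part of depth in these was not tested.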
